A study of Homo sapiens with 23 samples.

Results

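The genes of the cytosolic ribosomal proteins were followed across wild-type HCT116 cells and 4 knockout lines of the Argonaute (AGO) genes. Members were the protein-coding genes on autosomes or the X chromosome whose GENCODE symbol starts with RPL or RPS and a digit, together with *RPLP0*, *RPLP1*, *RPLP2*, *RPSA* and *FAU*, without the RPS6K kinases and without 8 paralogs with similar symbols. The symbol pattern took 82 genes, of which *RPS19BP1* and 3 readthrough loci are no ribosomal protein genes and were kept apart. This left 78 members of 57875 genes listed, 46 of the large (60S) and 32 of the small (40S) ribosomal subunit. All 78 passed edgeR's filter on low counts, which kept 22842 genes. HCT116 is a human colorectal carcinoma line. RNA was sequenced from 3 biological replicates of each of 5 lines, namely wild-type cells, *AGO1*-/- cells, *AGO2*-/- cells, cells with the genotype *AGO1*-/-, *AGO2*-/- (*AGO1/2* or double knockout) and cells with the genotype *AGO1*-/-, *AGO2*-/-, *AGO3*-/- (*AGO1/2/3* or triple knockout), all untreated and at passages 12 to 18. The lines were edited by CRISPR in HCT116 cells. Each genotype is 1 line, and genotype and line cannot be told apart.

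A ribosome needs each of its proteins in about equal number, and the genes that encode them are among the most strongly expressed of a dividing cell. Their mRNAs start with a cytosine followed by an unbroken run of pyrimidines, the 5′ terminal oligopyrimidine (5′TOP) motif, through which *LARP1* and the mTOR kinase set their translation and stability together. AGO proteins carry miRNAs to mRNAs, mostly within 3′-UTRs. Excess single ribosomal proteins are degraded, and *RPL5* and *RPL11*, bound to 5S ribosomal RNA, can bind MDM2 and raise p53.

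Transcription start sites show what these genes share in sequence beside their symbols. RefSeq start windows (GRCh38.p14) were at hand for 63 of the 78 members. A start with C followed by at least 4 pyrimidines, a run of 5 or more, was found at 1 or more annotated starts of 47 of these 63 members (74.6%), and of 1404 of all 27305 genes in the table (5.14%). The windows below hold the 10 bases before the annotated start and the first 20 transcribed bases, 5′ to 3′, with the pyrimidine run from the start in capitals. They are, of the members with a window at hand, the 5 that fell most in triple knockout cells, then *RPS6* and *RPLP0* as well-known members of each subunit, and *RPL15*, which changed least.
RPL12: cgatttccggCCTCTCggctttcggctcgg
RPL34: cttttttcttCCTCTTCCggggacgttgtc
RPL26: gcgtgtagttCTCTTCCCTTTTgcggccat
RPS18: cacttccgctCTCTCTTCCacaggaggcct
RPL13A: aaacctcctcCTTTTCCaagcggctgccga
RPS6: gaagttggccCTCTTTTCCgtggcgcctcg
RPLP0: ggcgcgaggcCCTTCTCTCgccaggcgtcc
RPL15: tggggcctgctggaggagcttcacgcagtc
These windows lie at chr9:127451387-127451416 (minus strand), chr4:108620566-108620595 (plus strand), chr17:8383174-8383203 (minus strand), chr6:33272065-33272094 (plus strand), chr19:49487598-49487627 (plus strand), chr9:19380217-19380246 (minus strand), chr12:120201092-120201121 (minus strand) and chr3:23916535-23916564 (plus strand). The runs were 6 bases in *RPL12*, 8 in *RPL34*, 12 in *RPL26*, 9 in *RPS18*, 7 in *RPL13A* and 9 each in *RPS6* and *RPLP0*. None of the 3 annotated starts of *RPL15* had such a run, and 1 of them is shown. The window shown for *RPL15* lies wholly upstream of the start of that gene in GENCODE. The letters are a description of annotated starts, not of start sites used in these cells. In triple knockout cells the median log2 fold change was -1.02 over the 47 members with a run and, over the 16 whose starts lacked it, -1.04. *RPL3* (-1.38) lacked a run and *RPL10* (-0.70) had one. No window was at hand for *RPL7* (-1.77), *RPL8* (-1.51) and *RPL30* (-1.47).

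Total counts were 27709971 to 45271146 per sample. The authors deposited counts estimated by Salmon. Levels are given as CPM, the count divided by the library size after scaling by edgeR's TMM method and by its usual factor for CPM. A CPM value also grows with the length of a transcript, so levels are compared between samples and not between genes. The least covered member still had 2824 counts in its lowest sample, and the spread between replicates rather than counting error set the precision. *AGO1* RNA was lower in each line labelled as *AGO1* knockout (log2 fold change -1.89, -1.84 and -2.01) and *AGO3* RNA in the *AGO1/2/3* line (-1.12). *AGO2* RNA was lower in *AGO2* knockout cells (-0.51), was not called in *AGO1/2* knockout cells (-0.26, adjusted p = 0.0924) and was higher in *AGO1/2/3* knockout cells (0.40, adjusted p = 0.00477). RNA does not show whether a frameshift removed the protein, and the lines are called by their labels. The epithelial markers *EPCAM*, *CDH1*, *KRT8*, *KRT18* and *KRT19* were detected in each line, and *VIL1* was at most 0.25 CPM in a line's mean. *EPCAM* and *CDH1* were called lower in the *AGO1* (log2 fold change -0.33 and -1.15), double (-0.92 and -1.66) and triple knockout (-1.74 and -3.51). The other markers did not all fall with them. *KRT8*, *KRT18* and *KRT19* were not called in the *AGO1* line. The *AGO2* line had *EPCAM* called higher (0.32) and *KRT18* lower (-0.41), with *CDH1* not called (-0.55). The double knockout had *KRT8* (0.76) and *KRT19* (0.64) called higher, while *KRT18* (0.39) was not called. In the triple knockout *KRT8* was called higher (0.41), and *KRT18* (0.28) and *KRT19* (0.02) were not called. *CD3E* (leukocytes), *CDH5* (endothelium) and *ALB* (hepatocytes) were at or near 0, while the leukocyte marker *PTPRC* had 0.918 to 1.33 CPM and the endothelial marker *PECAM1* 1.29 to 1.79 CPM in the lines' means. The summed level of the 9 markers of other cell types was 71.2 to 102.6 CPM in wild-type and 147.5 to 154.1 CPM in *AGO1/2/3* knockout samples, most of it *TUBB3* and *COL1A1*, and its part in the results was not tested. In the *AGO2* knockout files the header gives a different Salmon mode (quasi), which cannot be told apart from that genotype.

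The ribosomal protein genes as a whole were lowest in *AGO1/2/3* knockout cells. The summed level of the 78 members was 50019.5, 50716 and 58198 CPM in the wild-type replicates and 24299, 24117 and 26081 CPM in the *AGO1/2/3* knockout replicates, 46.9% of the wild-type mean. *AGO1/2* knockout samples were between them, with 39562, 40593 and 47953 CPM. The sums were 55664, 62733 and 66636 CPM in *AGO1* knockout and 54573, 46405 and 49633 CPM in *AGO2* knockout samples. Both single knockouts overlapped the wild-type range, the *AGO1/2* samples were all below it, and the *AGO1/2/3* samples were all below the *AGO1/2* samples. As a share of all counts, before any scaling between samples, the members took 5.62% ± 0.298 in wild-type samples (SD, n = 3), 6.15% ± 0.439 in *AGO1*, 4.91% ± 0.447 in *AGO2*, 4.26% ± 0.304 in double and 2.39% ± 0.0689 in triple knockout cells. These are shares of the RNA in a library, and bulk RNA cannot tell fewer cells with a high level from less RNA per cell.

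**Figure D1:**
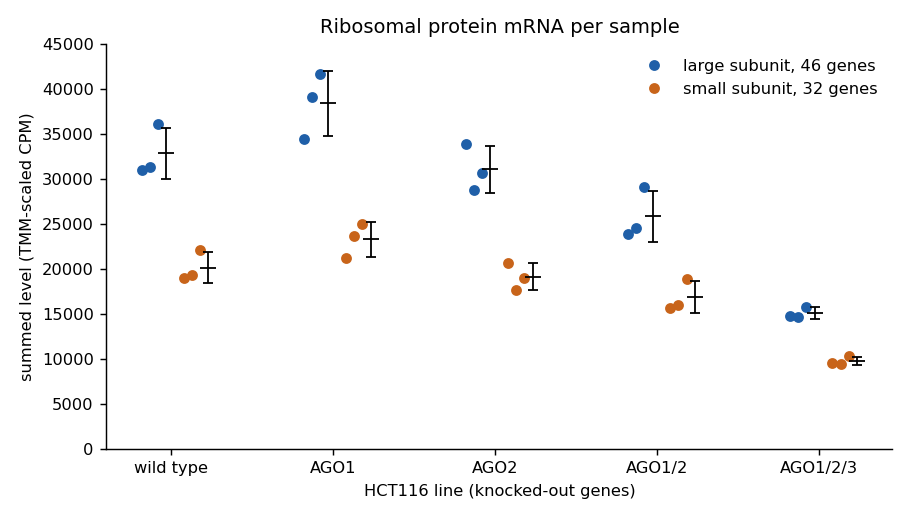
Summed level of the 46 large and the 32 small subunit genes in TMM-scaled CPM (vertical axis) for the 3 replicates of each line (points, horizontal axis), with the mean and SD in black. The *AGO1/2/3* knockout samples are the lowest for both subunits, at 14803, 14677 and 15815 CPM for the large and 9496, 9440.3 and 10266 CPM for the small subunit.

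Within a line the members moved together from replicate to replicate. Wild-type replicate 3 had the highest level of its line for 70 of the 78 members, *AGO1* knockout replicate 3 for 69, *AGO2* knockout replicate 1 for 74, *AGO1/2* knockout replicate 3 for 76 and *AGO1/2/3* knockout replicate 3 for 67. The coefficient of variation of a member over 3 replicates had a median of 9.77% in wild-type, 10.8% in double and 4.40% in triple knockout cells. The 78 tests of a comparison therefore share the same samples and the same deviations, and their count is not 78 independent observations.

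In *AGO1/2/3* knockout cells all 78 members were called lower than in wild-type cells at an adjusted p at or under 0.05 (quasi-likelihood test of edgeR, Benjamini-Hochberg adjustment over the 22842 genes), where 19.8% of all genes tested were called lower and 20.3% higher. The knockout replicates lay below all wild-type replicates for all 78 members, as they did for 23.8% of all genes. The median log2 fold change of the members was -1.03, 48.8% of the wild-type level, and that of all genes tested -0.01. Single members ranged from -1.77 (*RPL7*) to -0.57 (*RPL15*), with a median standard error of 0.11. At least 2-fold lower were 47 members, and 8.97% of all genes were called and at least 2-fold lower. All 78 stayed called under each of the 25 other settings run.

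**Figure D2:**
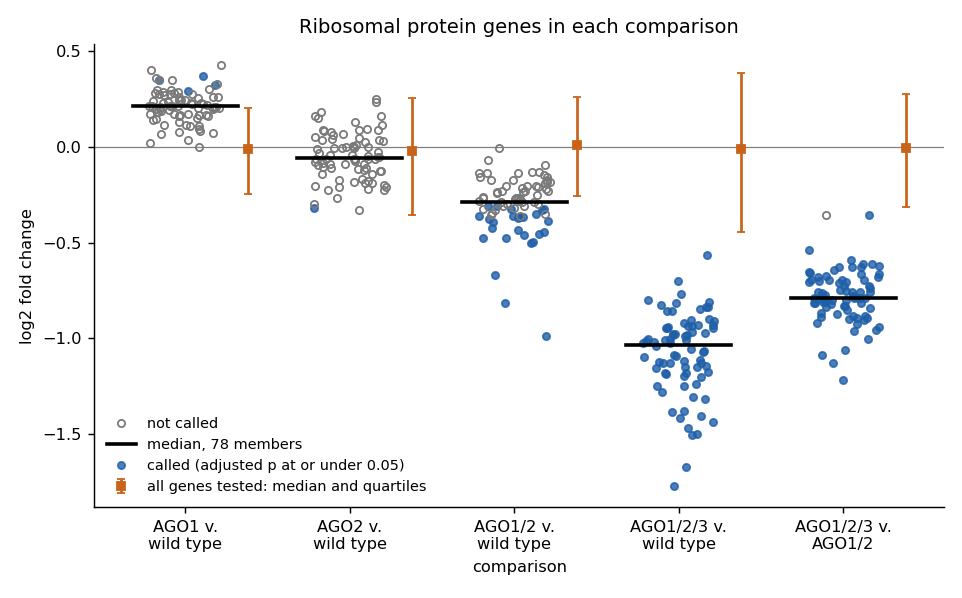
Log2 fold change (vertical axis) of each of the 78 members in the 5 comparisons (horizontal axis), filled where called and open where not, with the members' median as a black bar and the median and quartiles of all 22842 genes tested in orange. The members lie as a group above 0 in *AGO1* knockout cells and below 0 in double and triple knockout cells, with medians of 0.21, -0.29 and -1.03.

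Among the small subunit genes, *RPS6* encodes the substrate of the S6 kinases downstream of mTOR. *RPS6* (ENSG00000137154, chromosome 9, 19375715 to 19380236) had 979, 1185 and 1143 CPM in the 3 wild-type replicates, 1079.8, 1244 and 1369.6 in *AGO1*, 1039.8, 854 and 938 in *AGO2*, 729, 769.6 and 929.7 in double and 498, 495 and 526 in triple knockout replicates. It was lower in *AGO1/2* (log2 fold change -0.45, SE 0.12, adjusted p = 0.0197) and in *AGO1/2/3* knockout cells (log2 fold change -1.12, SE 0.12, adjusted p = 3.65e-06). The samples of neither line overlapped with wild-type samples. *RPS3*, at the channel through which the mRNA enters the 40S subunit, had 1005, 918 and 1177 CPM in wild-type, 1178, 1265 and 1312 in *AGO1*, 990.3, 846 and 889 in *AGO2*, 812, 851 and 1002 in double and 474, 453 and 499.7 in triple knockout replicates (ENSG00000149273, chromosome 11, 75399515 to 75422280). Its *AGO1/2/3* samples stood apart from all others (log2 fold change -1.12, SE 0.11, adjusted p = 1.75e-06), while its *AGO1/2* value of -0.22 was not called (adjusted p = 0.216). *RPS19*, the gene most often mutated in Diamond-Blackfan anaemia, had 471, 484 and 525 CPM in wild-type, 509, 565 and 626 in *AGO1*, 508, 415 and 469 in *AGO2*, 429, 432 and 485 in double and 245, 255 and 277 in triple knockout cells (ENSG00000105372, chromosome 19, 41860255 to 41872925). It was called lower in the last line alone of the 4 compared with wild-type cells (log2 fold change -0.93, SE 0.11, adjusted p = 5.49e-06).

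*RPS2* and *RPSA*, of the small subunit (*RPSA* is also known as the laminin receptor gene), were the members nearest to 0 in *AGO1/2* knockout cells but fell in triple knockout cells. *RPS2* (ENSG00000140988, chromosome 16, 1962058 to 1964841) had 1645, 1339 and 1883 CPM in wild-type, 1689.7, 1948 and 2049 in *AGO1*, 1618, 1354 and 1437 in *AGO2*, 1476, 1516 and 1655 in double and 655, 693 and 772 in triple knockout replicates. Its *AGO1/2* samples lay within the spread of the wild-type samples (-0.07, adjusted p = 0.781), and its *AGO1/2/3* samples were the lowest (log2 fold change -1.20, SE 0.13, adjusted p = 2.89e-06). For *RPSA* (ENSG00000168028, chromosome 3, 39406716 to 39426255) the values were 916, 652 and 1075 CPM in wild-type, 989, 1034 and 955 in *AGO1*, 1013, 875 and 936 in *AGO2*, 844, 832 and 960.1 in double and 429.9, 488 and 563 in triple knockout replicates. The log2 fold change of *RPSA* was -0.004 in *AGO1/2* (SE 0.15) and -0.84 in *AGO1/2/3* knockout cells (SE 0.15, adjusted p = 0.000398). For *RPS2*, 7.80% of the counts assigned to it and its named pseudogenes together went to the pseudogenes in wild-type and 7.84% in *AGO1/2/3* knockout cells.

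*RPS27A* and *FAU* encode fusions in which ubiquitin or a ubiquitin-like protein precedes a protein of the small subunit. *RPS27A* (ENSG00000143947, chromosome 2, 55231903 to 55235853) had 594, 616 and 678 CPM in wild-type, 646, 714 and 734 in *AGO1*, 656, 578 and 638 in *AGO2*, 489, 474 and 564 in double and 257, 272 and 292 in triple knockout replicates. It was called lower in *AGO1/2* (log2 fold change -0.31, SE 0.10, adjusted p = 0.0464) and *AGO1/2/3* knockout cells (log2 fold change -1.20, SE 0.10, adjusted p = 2.64e-07). *FAU* (ENSG00000149806, chromosome 11, 65120630 to 65122177) had 179, 166 and 199 CPM in wild-type, 227, 233 and 222 in *AGO1*, 202, 224 and 214 in *AGO2*, 172, 151 and 169 in double and 99.0, 98.9 and 106 in triple knockout replicates, and fell in the last (log2 fold change -0.84, SE 0.09, adjusted p = 3.48e-06). *RPS26*, next to the channel through which the mRNA leaves, had 311, 261 and 337 CPM in wild-type, 386, 343 and 344 in *AGO1*, 330.4, 339 and 339.8 in *AGO2*, 292, 244 and 269 in double and 151, 159.5 and 173 in triple knockout replicates (ENSG00000197728, chromosome 12, 56041351 to 56044697). Its *AGO1/2/3* samples were below all others (log2 fold change -0.91, SE 0.11, adjusted p = 7.57e-06). *RPS4X* (ENSG00000198034, chromosome X, 72255679 to 72277248), which escapes X inactivation, had 569, 635 and 655 CPM in wild-type, 704, 797 and 873 in *AGO1*, 533, 467 and 489.9 in *AGO2*, 457, 467 and 554 in double and 283, 282 and 305 in triple knockout replicates. It was the only member called lower in each of *AGO2*, double and triple knockout cells, with log2 fold changes of -0.32, -0.33 and -1.09, and the calls in *AGO2* and *AGO1/2* knockout cells, with adjusted p of 0.0485 and 0.0451, were each lost under 11 other settings.

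In the large subunit, *RPLP0*, *RPLP1* and *RPLP2* form the stalk that recruits the elongation factors. *RPLP0* (ENSG00000089157, chromosome 12, 120196699 to 120201235) had 1596, 1299.9 and 1809.8 CPM in wild-type, 1603, 1798 and 1884 in *AGO1*, 1496, 1258 and 1328 in *AGO2*, 1312, 1325 and 1511 in double and 741, 779 and 861 in triple knockout replicates. *RPLP1* (ENSG00000137818, chromosome 15, 69452814 to 69456205) had 676, 666 and 749 CPM in wild-type, 785, 858 and 928 in *AGO1*, 719, 634 and 646 in *AGO2*, 567, 606 and 702 in double and 359.5, 349 and 377 in triple knockout replicates. For *RPLP2* (ENSG00000177600, chromosome 11, 809965 to 812880) the values were 387, 363 and 419 CPM in wild-type, 421, 458 and 507 in *AGO1*, 434, 392 and 408 in *AGO2*, 345, 331 and 389 in double and 208, 209.8 and 233 in triple knockout replicates. The stalk genes were lower in *AGO1/2/3* knockout cells by similar amounts, with log2 fold changes of -0.98, -0.95 and -0.84 (adjusted p of 1.58e-05, 3.65e-06 and 8.81e-06), and none was called in another knockout line. *RPL12* sits at the base of the stalk and had the second largest decrease of all members. *RPL12* (ENSG00000197958, chromosome 9, 127447674 to 127451406) had 873, 994 and 1022 CPM in wild-type, 984, 1240.3 and 1322 in *AGO1*, 848, 692 and 760.0 in *AGO2*, 626, 685 and 798 in double and 294, 294 and 318 in triple knockout replicates. Its log2 fold change was -0.45 in *AGO1/2* (SE 0.13, adjusted p = 0.0219) and -1.67 in *AGO1/2/3* knockout cells (SE 0.13, adjusted p = 1.1e-07).

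The 5S particle proteins *RPL5* and *RPL11* fell with the others in *AGO1/2/3* knockout cells. *RPL5* (ENSG00000122406, chromosome 1, 92832013 to 92841924) had 802, 725 and 938 CPM in wild-type, 917, 1035 and 1088 in *AGO1*, 871, 765 and 829 in *AGO2*, 632, 633 and 752 in double and 401, 415 and 462 in triple knockout replicates. *RPL11* (ENSG00000142676, chromosome 1, 23691742 to 23696835) had 579, 569 and 692 CPM in wild-type, 670.3, 719 and 746 in *AGO1*, 626, 558 and 588 in *AGO2*, 489, 495 and 584 in double and 274, 284 and 301 in triple knockout replicates. The *AGO1/2/3* samples were below all others for both, with log2 fold changes of -0.95 (SE 0.12) and -1.10 (SE 0.10), and neither was called in *AGO1/2* knockout cells (-0.29 and -0.23).

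*RPL3*, beside the peptidyl transferase centre, was called lower in 2 of the 4 knockout lines. *RPL3* (ENSG00000100316, chromosome 22, 39312882 to 39320389) had 1447, 1487 and 1569 CPM in wild-type, 1408, 1761 and 2058 in *AGO1*, 1447, 1095 and 1193 in *AGO2*, 954, 1022 and 1259 in double and 574, 564 and 590.5 in triple knockout replicates. It was lower in *AGO1/2* (log2 fold change -0.48, SE 0.14, adjusted p = 0.0308) and more so in *AGO1/2/3* knockout cells (log2 fold change -1.38, SE 0.14, adjusted p = 2.33e-06). *RPL41*, with the shortest coding sequence of the members (75 bases), had 1283, 1302 and 1444 CPM in wild-type, 1209, 1409 and 1405 in *AGO1*, 1400.0, 1132 and 1235 in *AGO2*, 871, 899 and 1075 in double and 517, 492 and 531 in triple knockout replicates (ENSG00000229117, chromosome 12, 56116590 to 56117967). Its decrease was -0.50 in *AGO1/2* (adjusted p = 0.00543) and -1.39 in *AGO1/2/3* knockout cells (adjusted p = 1.77e-07). *RPL22*, an RNA-binding protein of the 60S surface, had 475, 451 and 531 CPM in wild-type, 486, 520.4 and 527 in *AGO1*, 566, 489 and 524 in *AGO2*, 370.0, 379.9 and 447 in double and 237, 242 and 259 in triple knockout replicates (ENSG00000116251, chromosome 1, 6185020 to 6209389), a decrease called in the last alone (log2 fold change -0.98, SE 0.10, adjusted p = 2.04e-06). Its paralog *RPL22L1* also fell there, with a log2 fold change of -1.32 (SE 0.11, adjusted p = 3.38e-07).

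*RPL10*, one of the last proteins to join the 60S subunit, and *RPL15* were the members with the smallest decrease in *AGO1/2/3* knockout cells. *RPL10* (ENSG00000147403, chromosome X, 154389955 to 154409168) had 755, 856 and 882 CPM in wild-type, 754, 886 and 995 in *AGO1*, 841, 658 and 707 in *AGO2*, 583, 639 and 742 in double and 499, 489 and 545 in triple knockout replicates. Against wild-type cells it was called in *AGO1/2/3* knockout cells (log2 fold change -0.70, SE 0.13, adjusted p = 0.000428). Against *AGO1/2* knockout cells it was the only member not called (log2 fold change -0.36, SE 0.13, adjusted p = 0.0574), though its replicates did not overlap, and the call was gained under 9 of 25 other settings. *RPL15* (ENSG00000174748, chromosome 3, 23916591 to 23924374) had 805, 819 and 965 CPM in wild-type, 918, 1067 and 1165 in *AGO1*, 935, 779.8 and 826 in *AGO2*, 677, 718 and 844 in double and 571, 570.2 and 608 in triple knockout replicates. Its log2 fold change in *AGO1/2/3* knockout cells was -0.57 (SE 0.12, adjusted p = 0.00129). The next smallest decreases were those of *RPS15* (-0.77) and *RPS23* (-0.80).

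**Figure D3:**
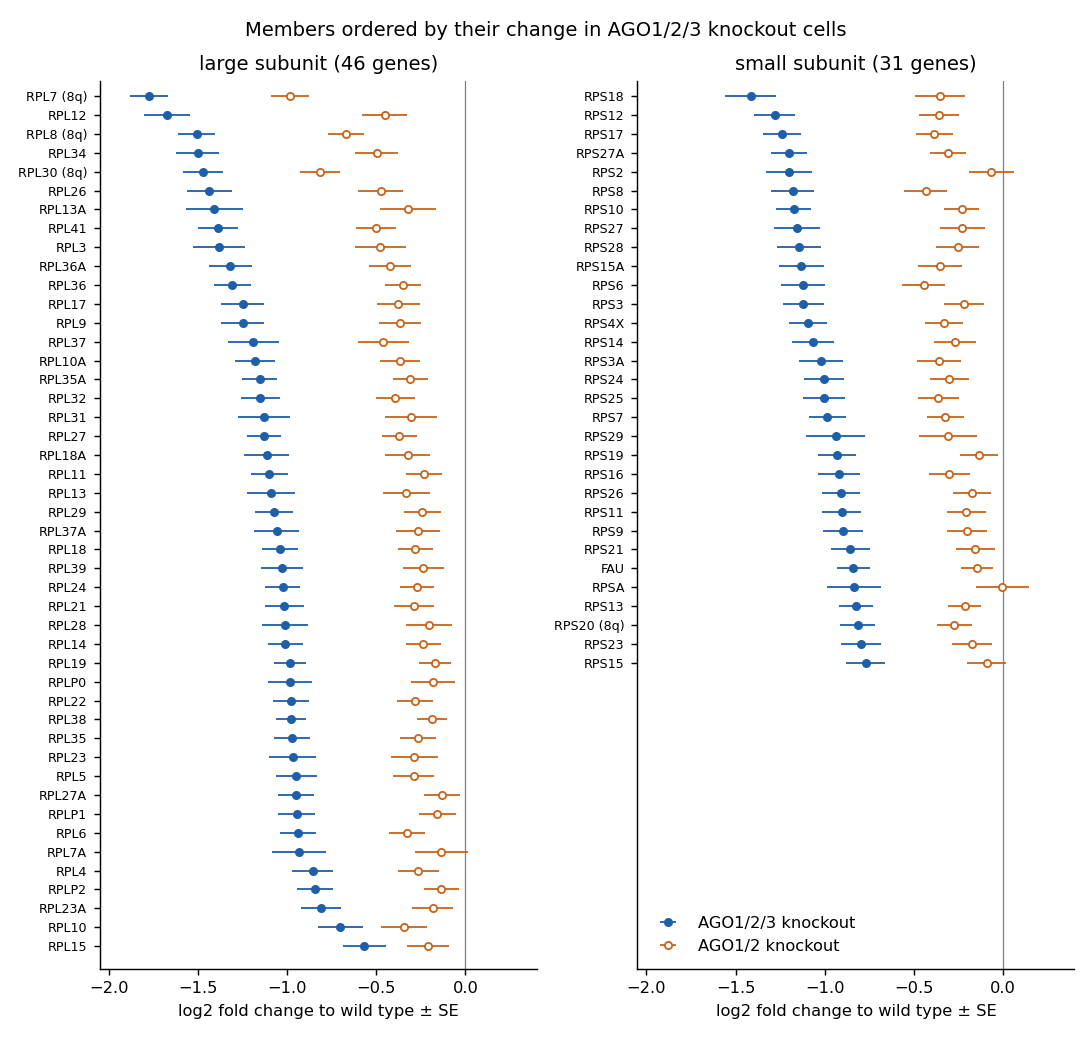
Log2 fold change to wild-type cells ± standard error (horizontal axis) of 77 members in *AGO1/2/3* (filled) and *AGO1/2* knockout cells (open), ordered within each subunit by the *AGO1/2/3* value. In *AGO1/2/3* knockout cells each member lies further to the left than in *AGO1/2* knockout cells, and the members on chromosome arm 8q (marked) *RPL7*, *RPL30* and *RPL8* have the lowest *AGO1/2* values.

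In *AGO1/2* knockout cells all 78 members had a log2 fold change below 0, as did 48.7% of all genes, and 26 were called lower and 0 higher (edgeR), where 8.35% of all genes tested were called lower and 8.37% higher. The median was -0.29 over the members and 0.01 over all genes. The samples did not overlap for 35 members, and for 14.3% of all genes in that direction. By the unadjusted p 51 members passed 0.05, as did 29.0% of all genes. For the other fits that follow, the share of all genes called is not given here. The number called rests on few samples: it was 5 without *AGO1/2* knockout replicate 1 and also without replicate 2, 7 without wild-type replicate 3, 37 without *AGO1/2* knockout replicate 3, 16 without the *AGO2* knockout samples and 4 in a fit of the 6 samples of the 2 lines, while the median stayed between -0.38 and -0.23 whichever sample was left out. Of the members given here in every sample, *RPL7*, *RPL8*, *RPL30* and *RPL41* were called lower under each of the 25 other settings, whereas *RPL3*, *RPL12*, *RPS6*, *RPS4X* and *RPS27A* each lost the call without *AGO1/2* knockout replicate 1 and without replicate 2.

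The 3 largest decreases in *AGO1/2* knockout cells were of genes on the long arm of chromosome 8, which also holds *RPS20*. *RPL7*, a protein of the large subunit, had 1262, 1173 and 1491 CPM in wild-type, 1455, 1585 and 1545 in *AGO1*, 1250.4, 1150.4 and 1194 in *AGO2*, 619.6, 636 and 726 in double and 356, 379 and 413 in triple knockout replicates (ENSG00000147604, chromosome 8, 73290242 to 73295789). The *AGO1/2* samples were all below the wild-type and single knockout samples and all above the *AGO1/2/3* samples (log2 fold change -0.99, SE 0.11, adjusted p = 1.56e-05 and log2 fold change -1.77, SE 0.11, adjusted p = 1.1e-08). *RPL30* (ENSG00000156482, chromosome 8, 98024851 to 98046469), which takes part in a bridge to the small subunit, had 602, 693 and 703 CPM in wild-type, 643, 739 and 776 in *AGO1*, 709.9, 593 and 639 in *AGO2*, 352, 358 and 426 in double and 243, 231 and 247 in triple knockout replicates. It fell in *AGO1/2* (log2 fold change -0.82, SE 0.11, adjusted p = 0.000131) and further in *AGO1/2/3* knockout cells (-1.47, SE 0.11). *RPL8* (ENSG00000161016, chromosome 8, 144789765 to 144792587), beside the peptidyl transferase centre, had 1178, 1130.1 and 1340.2 CPM in wild-type, 1422, 1628 and 1675 in *AGO1*, 1234, 1093 and 1112 in *AGO2*, 751, 710.3 and 831 in double and 423, 413 and 449 in triple knockout replicates. Its *AGO1* samples were the highest and its *AGO1/2* samples below those of wild-type cells (log2 fold change -0.67, SE 0.10, adjusted p = 0.000365). *RPS20* (ENSG00000008988, chromosome 8, 56067254 to 56074510), of the small subunit, had 638, 610.2 and 719 CPM in wild-type, 639, 708 and 740.0 in *AGO1*, 687, 621 and 651 in *AGO2*, 519.5, 511 and 597 in double and 374, 363 and 382 in triple knockout replicates, and was not called in *AGO1/2* knockout cells (log2 fold change -0.27, SE 0.10, adjusted p = 0.0677).

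Genes beside *RPL7*, *RPL30* and *RPL8* were lower in the same lines. Neighbours were the genes tested within 5 Mb that averaged 1 CPM or more, members left out. There the median log2 fold change in *AGO1/2* knockout cells was -0.37 for the 24 neighbours of *RPL7*, -0.44 for the 56 of *RPL30* and -0.69 for the 93 of *RPL8*. Called lower were 13, 31 and 64 of them, as were 8.35% of all genes tested. The 26 neighbours of *RPS20*, which lies nearest to the centromere, had a median of 0.00, with 3 called lower. In *AGO1/2/3* knockout cells the medians were -0.39, -0.40, -0.78 and 0.06 in the same order. The medians around the 74 other members lay between -0.16 and 0.18 in double and between -0.20 and 0.31 in triple knockout cells. *AGO2*, an edited gene, also lies on chromosome 8. In *AGO2* knockout cells the medians of the neighbours of *RPL7*, *RPL30* and *RPL8* were 0.14, 0.16 and -0.16. The part of the neighbourhood, or of the edit of *AGO2*, in the values of *RPL7*, *RPL30* and *RPL8* was not tested. In *AGO1/2* knockout cells *RPL8* differed from its neighbours' median by 0.01, *RPL7* by -0.61 and *RPL30* by -0.37, and *RPL8* was the only 1 of the 78 members not below its neighbours. In *AGO1/2/3* knockout cells the difference was below 0 for all 78, with a median of -1.06, and was nearest to 0 for *RPL15* at -0.54. Without the 4 members on chromosome 8, 23 of 74 were called lower in double knockout cells, where the median was -0.28, and 74 of 74 in triple knockout cells, where the median was -1.03. Of all genes tested, 8.35% were called lower in double and 19.8% in triple knockout cells.

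**Figure D4:**
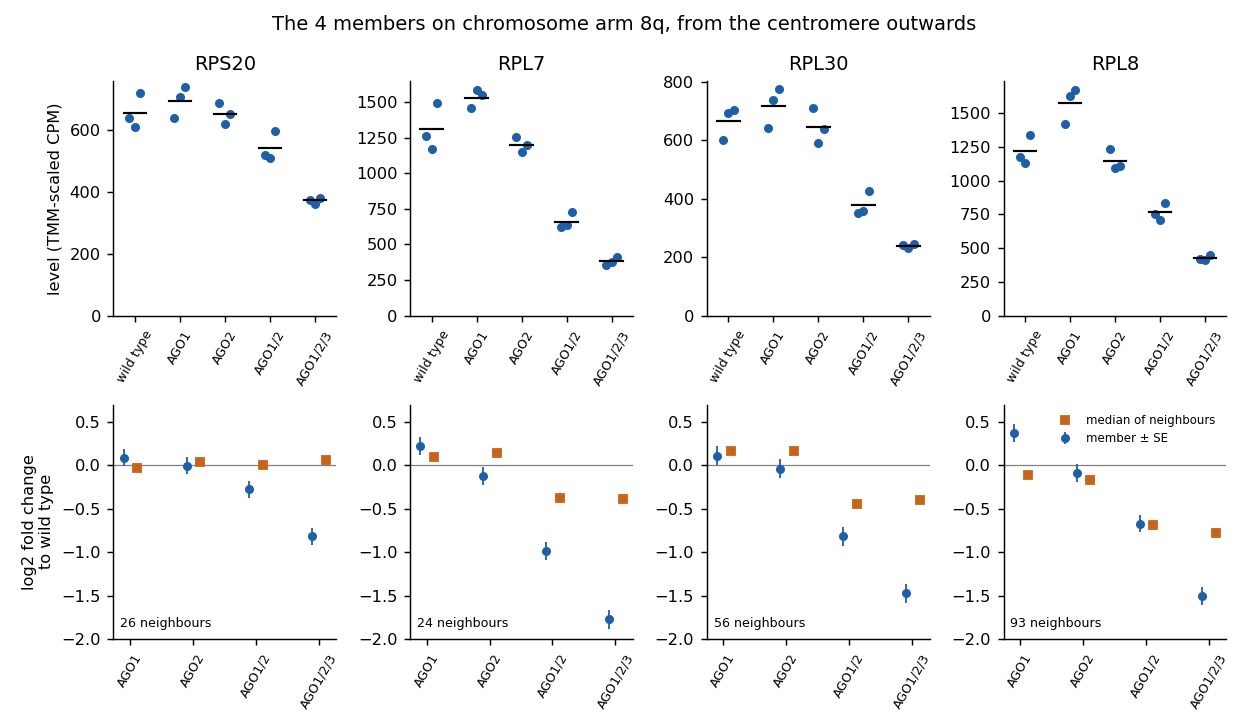
Upper row, level in TMM-scaled CPM (vertical axis) of *RPS20*, *RPL7*, *RPL30* and *RPL8* in the 3 replicates of each line (points, horizontal axis) with the line's mean (bar). Lower row, log2 fold change to wild-type cells of the member ± standard error and the median of the genes within 5 Mb, which in *AGO1/2* knockout cells is near 0 for *RPS20* and -0.69 for *RPL8*.

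*AGO1/2/3* knockout cells were also compared with *AGO1/2* knockout cells, lines that differ by label in *AGO3*. There 77 of the 78 members were called lower and 0 higher (edgeR), against 10.0% of all genes called lower and 11.9% higher. The median was -0.79 over the members, 57.9% of the level in *AGO1/2* knockout cells, and -0.01 over all genes. The samples of the 2 lines did not overlap for any of the 78, where 19.6% of all genes were apart in that direction. The largest decreases were those of *RPL12* (log2 fold change -1.22, SE 0.13, adjusted p = 7.86e-06), *RPS2* (-1.13, SE 0.13) and *RPL13A*. *RPL13A*, which can leave the ribosome to block translation of inflammatory messages, had 1122, 1113 and 1328 CPM in wild-type, 1284, 1539 and 1745 in *AGO1*, 1239, 877 and 1048 in *AGO2*, 799, 893 and 1159.5 in double and 479, 431 and 434 in triple knockout replicates (ENSG00000142541, chromosome 19, 49487510 to 49493057). It was not called in *AGO1/2* knockout cells (-0.32, adjusted p = 0.189) and fell from there (log2 fold change -1.09, SE 0.16, adjusted p = 0.00016). *RPL7*, *RPL30* and *RPL8* also fell from *AGO1/2* to *AGO1/2/3* knockout cells, with log2 fold changes of -0.79, -0.66 and -0.83, where the medians of their neighbours were 0.01, -0.03 and -0.13. The comparisons of *AGO1/2/3* knockout cells with wild-type and with *AGO1/2* knockout cells share the *AGO1/2/3* samples.

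In *AGO1* knockout cells few members were called. A log2 fold change above 0 was found for 77 of 78 members and 48.8% of all genes, with a median of 0.21 over the members and -0.01 over all genes. The edgeR test called 4 members higher and 0 lower, where 3.17% of all genes were called higher and 5.5% lower, and the samples did not overlap for 22 members, against 10.2% of all genes in that direction. Among the 4 were *RPL8* (log2 fold change 0.37, SE 0.10, adjusted p = 0.0333), *FAU* (log2 fold change 0.33, SE 0.09, adjusted p = 0.036) and *RPL38* (0.29, SE 0.09, adjusted p = 0.044), and by the unadjusted p 27 members and 22.6% of all genes passed 0.05. No member was called with total counts only, in the fit of 6 samples or without the *AGO2* knockout samples. With 1 sample left out the number ran from 0 to 7, and it stayed within 1.5 times of 4 without *AGO1* knockout replicate 1, *AGO1/2* knockout replicate 3 or *AGO1/2/3* knockout replicate 3 alone. It was 0 without wild-type replicate 1, wild-type replicate 2, *AGO1* knockout replicate 2 or *AGO2* knockout replicate 3. DESeq2 called 11.

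*AGO2* knockout cells had the members near wild-type level. The median was -0.06 over the members and -0.02 over all genes, with 51 of 78 members and 52.1% of all genes below 0. *RPS4X* was called lower and no member higher, where 10.8% of all genes were called lower and 8.55% higher, and 5 of 78 members and 35.5% of all genes had an unadjusted p under 0.05. The lowest value was that of *RPL12* (-0.33, adjusted p = 0.0782) and the highest that of *RPS21* (0.25, adjusted p = 0.113). The difference of the *AGO1/2* from the *AGO1* knockout line was set against that of the *AGO2* knockout line from wild-type cells. By this edgeR test, chosen after the data were seen, it was lower for 34 of 78 members and higher for 0, where 8.26% of all genes were called lower and 11.5% higher. The test compares separate lines. That test was run in the main setting alone. A p above the threshold does not show that a level was unchanged. With total counts only 9 members were called lower, and the share of all genes in that fit is not given here. *RPS4X* lost its call without wild-type replicate 2 or 3, *AGO1* knockout replicate 2, *AGO2* knockout replicate 2 or 3, *AGO1/2* knockout replicate 2 or *AGO1/2/3* knockout replicate 1 or 2, and 3 members were called without *AGO2* knockout replicate 1.

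The balance of large and small subunit genes was compared through their medians and sums. In *AGO1/2/3* knockout cells the median member was at 47.8% of its wild-type level among the 46 large and at 49.9% among the 32 small subunit genes. In *AGO1/2* knockout cells it was at 81.3% and 83.5%, with 18 and 8 called lower, where 8.35% of all genes were called lower. The summed level of the large subunit genes divided by that of the small was 1.64, 1.62 and 1.63 in the wild-type replicates, 1.53, 1.53 and 1.54 in double and 1.56, 1.55 and 1.54 in triple knockout replicates. The ratio was thus lower in each sample of both lines than in any wild-type sample. Without the 4 members on chromosome 8 it was 1.52 ± 0.00614 in wild-type (SD, n = 3), 1.47 ± 0.0068 in double and 1.50 ± 0.0118 in triple knockout cells. The X-linked members *RPL10*, *RPL36A*, *RPL39* and *RPS4X* had a median of -1.06 in *AGO1/2/3* knockout cells, beside the -1.03 of all members.

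Many ribosomal protein genes carry snoRNAs, which guide the modification of ribosomal RNA, in their introns. A snoRNA gene on the same strand lay inside 28 of the 78 members (35.9%), 60 snoRNA genes in all, and inside 1.47% of the 14748 other protein-coding genes tested (GENCODE v44). Host members had a median of -1.02 in *AGO1/2/3* knockout cells and the other 50 members -1.05. Coding lengths ran from 75 to 1281 bases, with a median of 454.5 against 1395 for all protein-coding genes tested. Across the 78 members, the *AGO1/2/3* log2 fold change had a rank correlation of 0.04 with coding length and -0.23 with the wild-type level, given as a description of genes measured in the same libraries. The other short and abundant protein-coding genes had a coding sequence no longer than the longest member and a mean level at or above the lowest. Over these 290 genes, a list chosen after the data were seen, the median was 0.20 in *AGO1/2/3* knockout cells. Called lower were 58 and higher 109, where 19.8% of all genes were called lower and 20.3% higher.

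Pseudogenes complicate the counting of these genes, since processed copies share nearly their whole sequence. The files list 1589 genes named as a pseudogene of a member, and each of the 78 has at least 1. They took 1.30% to 1.85% of the counts of members and pseudogenes together. The share was largest for *RPL23A*, with 54.2% in wild-type and 53.3% in *AGO1/2/3* knockout cells, and for *RPS28*, with 14.8% and 15.7%, so that these 2 levels are uncertain. With pseudogene counts added, the *AGO1/2/3* log2 fold change was -0.84 for *RPL23A* (without them -0.81) and -1.13 for *RPS28* (without them -1.14), and all 78 members were called lower. For *RPL23A* the addition changed the *AGO2* knockout value from 0.13 to -0.10 and the *AGO1* knockout value from 0.25 to 0.17, none of them called. Of the readthrough loci, which share exons with *RPS10*, *RPL17* and *RPL36A*, *RPS10-NUDT3* was called lower in *AGO1/2/3* knockout cells (-0.79, adjusted p = 5.51e-05), while *RPL17-C18orf32* (0.67) and *RPL36A-HNRNPH2* (-0.51) were not called.

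Other 5′TOP messages, taken as a list of 18 translation factors and related genes, were also lower in *AGO1/2/3* knockout cells. Called lower were 16 of the 18, and *VIM*, which encodes vimentin, was called higher, where 19.8% and 20.3% of all genes were, with a median of -0.73. *EEF1B2*, an exchange factor of the elongation factor *EEF1A1*, went from 427 ± 25.5 to 205 ± 13.4 CPM (SD, n = 3; log2 fold change -1.06, SE 0.09, adjusted p = 4.45e-07). *EEF2*, the factor that moves the ribosome along the mRNA, had a log2 fold change of -0.85 (SE 0.14, adjusted p = 0.000186). *PABPC1* (-1.10), *EIF3E* (-1.37), *EIF3H* (-1.09) and *EEF1D* (-0.66) lie on chromosome 8. In *AGO1/2* knockout cells 4 of the list were called lower, where 8.35% of all genes were called lower and 8.37% higher. They were *PABPC1*, *EIF3E*, *EIF3H* and *NACA*, of which *NACA* alone does not lie on chromosome 8. *EEF1D* was not called there (-0.41, adjusted p = 0.0575), *VIM* was called higher and the list's median was -0.18. *EIF3F* was the 1 gene of the list not called in *AGO1/2/3* knockout cells (-0.20, adjusted p = 0.0804). *RACK1*, a protein of the small subunit with another kind of symbol, was called lower, with a log2 fold change of -0.88 (SE 0.10).

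The genes of the mitochondrial ribosome are a set apart from the cytosolic ones. Of 78 such genes (MRPL and MRPS), 27 were called lower and 0 higher in triple knockout cells, where 19.8% of all genes were called lower and 20.3% higher, with a median of -0.22. In *AGO2* knockout cells, whose files differ in Salmon mode, 31 were called higher and 0 lower, where 8.55% of all genes were called higher and 10.8% lower, with a median of 0.39. The difference between the 2 kinds of ribosome was not itself tested. Of the 8 paralogs left out of the members, 6 were expressed enough to be tested, and *RPL22L1* and *RPL7L1* (-0.62, adjusted p = 0.000436) were the 2 called lower in *AGO1/2/3* knockout cells. *RPS27L*, *RPL36AL*, *RPL26L1* and *RPL3L* had log2 fold changes of -0.16, -0.29, -0.30 and 0.08 and were not called. *RPL39L* and *RPL10L* did not pass the filter.

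Of 8 genes that regulate 5′TOP messages, 2 were called lower and 2 higher in *AGO1/2/3* knockout cells, close to the 19.8% and 20.3% of all genes, with a median of 0.05. *LARP1*, which binds the cap and the pyrimidine run, went from 302 ± 23.7 to 229.8 ± 7.65 CPM (SD, n = 3; log2 fold change -0.39, SE 0.10, adjusted p = 0.00387). *MTOR*, the kinase upstream, was higher (log2 fold change 0.42, SE 0.12, adjusted p = 0.0126). *EIF4EBP1* and *EIF4EBP2* encode 4E-binding proteins, which mTOR phosphorylates. *EIF4EBP1* had 40.7, 50.1 and 30.8 CPM in wild-type and 13.5, 15.2 and 14.1 in *AGO1/2/3* knockout replicates (log2 fold change -1.51, SE 0.23, adjusted p = 8.27e-05), and *EIF4EBP2* had 133, 91.3 and 120.2 CPM in wild-type and 272, 248 and 237 in the knockout replicates (log2 fold change 1.14, SE 0.13, adjusted p = 4.12e-06). Neither gene's samples overlapped between the 2 lines. *RPTOR*, *RPS6KB1*, *RPS6KB2* and *LARP4* were not called there, with log2 fold changes of -0.13, 0.22, -0.12 and 0.34. Of 7 chaperones that escort single ribosomal proteins, 4 were called lower and 0 higher in *AGO1/2/3* knockout cells, beside the 19.8% and 20.3% of all genes. They were *PDCD2* (-0.72, adjusted p = 4.49e-05), which binds the protein of *RPS2*, its relative *PDCD2L* (-0.76), *BCCIP* (-0.67) and *AAMP* (-0.30). *TSR2*, which escorts the protein of *RPS26*, *HEATR3*, which escorts that of *RPL5*, and *GRWD1*, which escorts that of *RPL3*, were not called (0.23, 0.15 and -0.16).

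**Figure D5:**
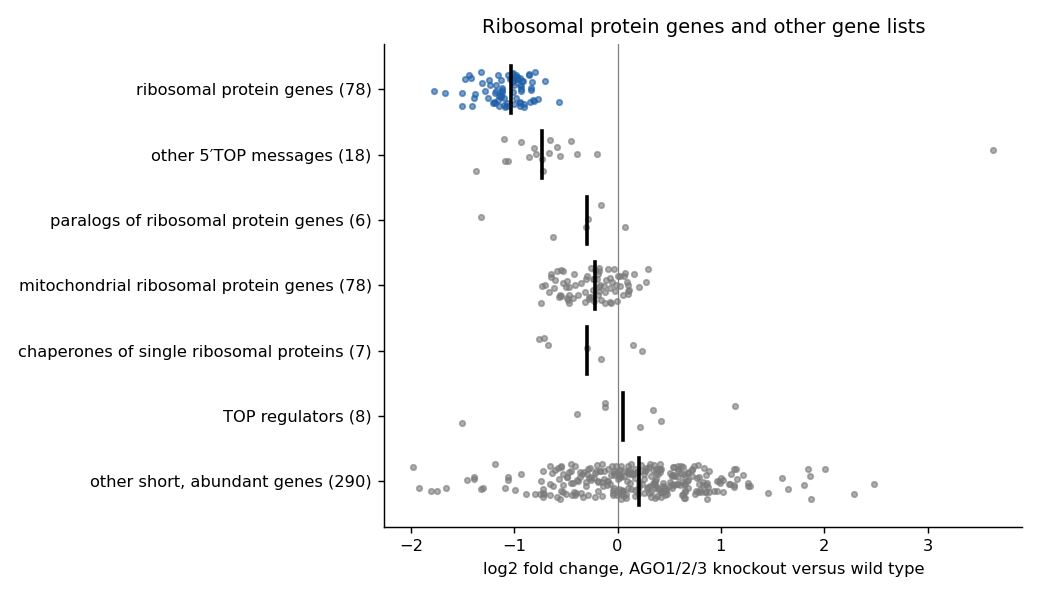
Log2 fold change in *AGO1/2/3* knockout cells versus wild-type cells (horizontal axis) of each gene (point) of 7 lists (vertical axis, number of genes in brackets), with the list's median as a black bar. The medians are -1.03 for the ribosomal protein genes, -0.73 for the other 5′TOP messages, -0.22 for the mitochondrial ribosomal protein genes and 0.20 for other short, abundant genes.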

How the data were processed

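RNA of HCT116 cells was sequenced as ribosomal RNA-depleted, stranded, paired-end libraries on an Illumina NextSeq 500, in 3 biological replicates of 5 lines (15 samples). Each genotype was grouped as in the labels. The study calls the replicates biological, but how the cultures were separated is not given in the sources used here, and p-values measure the spread between these samples. The authors deposited estimated counts per gene (expected counts from Salmon, after alignment with STAR to hg38), not normalized. The submitters' processing notes name STAR 2.5.3a, Salmon 0.11.0 and DESeq2. Between 30.8% and 33.8% of values were not whole. 8 eCLIP samples were not analysed here.

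Counts were rounded to whole numbers and tested with edgeR 4.0.16 in R 4.3.3 (filterByExpr, TMM, glmQLFit and glmQLFTest) over all 15 samples and 22842 genes, with Benjamini-Hochberg adjustment and calls at 0.05. The scripts were tested on simulated data with known changes. DESeq2 1.42.0, other scalings and filters, a replicate block and left-out samples were alternatives. Gene symbols and coordinates came from GENCODE v44 on hg38, and start windows from RefSeq. Total counts of 27709971 to 45271146 per sample set the counting error, which was small beside the spread between replicates. With 3 against 3 samples an exact permutation test cannot go below p = 0.1, so none was used. Members and comparison lists were chosen with earlier results of these data known. Members given in every sample were well-known genes of each subunit and those with the largest change in each comparison, of which 1 is not reported here. No 2 of the 15 files were identical (0 of 105 pairs).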

Additional observations from a re-analysis of the deposited data

Results flagged for a closer look

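In the ribosomal protein genes the *AGO1/2* line differed from the *AGO1* knockout line otherwise than the *AGO2* knockout line from wild-type cells. The contrast between these 2 differences was tested as an interaction in the edgeR fit over all 15 samples and was chosen after the data were seen. It was called lower for 34 of the 78 members and higher for 0, where 8.26% of all genes were called lower. All 78 values were below 0, with a median of -0.46 over the members and 0.05 over all genes. The difference was -1.08 (SE 0.15, adjusted p = 0.000205) for *RPL7*, -0.96 (SE 0.14, adjusted p = 0.000392) for *RPL8* and -0.89 (SE 0.15, adjusted p = 0.00123) for *RPL30*, whose neighbours on chromosome 8 were also lower in *AGO1/2* knockout cells. Among the members given here in every sample, it was outside chromosome 8 -0.70 (SE 0.13, adjusted p = 0.00161) for *FAU*, -0.59 (SE 0.16, adjusted p = 0.0197) for *RPL5* and -0.57 (SE 0.15, adjusted p = 0.0162) for *RPS26*. This is no ranking of all 78 members. Smaller values were those of *RPL22* (-0.48), *RPLP2* (-0.46) and *RPS27A* (-0.45). The contrast uses the *AGO2* knockout samples, whose files name another quantification mode, and the part of that mode in these values was not tested. It was fitted in the main setting alone, so how the 34 calls depend on the setting or on single samples is not known. The lines are separate, and an effect of *AGO2* loss cannot be told apart from other differences between them. The *AGO1* knockout line also enters the contrast. Its median was 0.21 against wild-type cells, and its calls depended on the setting.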

How the results depend on the processing

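The decrease in *AGO1/2/3* knockout cells kept 78 of 78 calls under 25 other settings. The calls in *AGO1* and *AGO2* knockout cells, and their number in *AGO1/2* knockout cells, depended on the setting. Total counts in place of TMM factors gave 0 members higher in *AGO1* knockout cells, 9 lower in *AGO2* and 56 lower in *AGO1/2* knockout cells, with medians of 0.12 in *AGO1* (0.21 with TMM), -0.17 in *AGO2*, -0.37 in double and -1.17 in triple knockout cells and -0.84 between *AGO1/2/3* and *AGO1/2* knockout cells. That scaling moved the median of all genes by -0.12 in *AGO2* and by -0.14 in *AGO1/2/3* knockout cells, and relative to the new median of all genes the members were at -0.03 and -1.02. DESeq2 called 11 members higher in *AGO1* knockout cells and 1 higher in *AGO2* knockout cells. Its size factors in the edgeR fit gave 0 lower in *AGO2* knockout cells. Without the filter on low counts 0 were lower in *AGO2* and 17 in *AGO1/2* knockout cells. With at least 10 counts in every sample the *AGO1/2/3* median was -1.10. In a fit of the 6 samples compared, 0 were higher in *AGO1*, 0 lower in *AGO2* and 4 lower in *AGO1/2* knockout cells, and the *AGO1/2/3* median was -1.09. Without the 3 *AGO2* knockout samples, 0 were higher in *AGO1* and 16 lower in *AGO1/2* knockout cells. The cause was not tested. Shares of all genes called were given for the main setting alone. A count of members under another setting, or with a sample left out, therefore cannot be set against the share of that fit.

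With any 1 of the 15 samples left out there were 0 to 7 members higher in *AGO1*, 0 to 3 lower in *AGO2*, 5 to 37 lower in double and 78 lower in triple knockout cells, and 75 to 78 lower in *AGO1/2/3* than in *AGO1/2* knockout cells. The medians ran from 0.17 to 0.28, -0.14 to -0.01, -0.38 to -0.23, -1.12 to -1.02 and -0.84 to -0.72 in the same order. As a share of the counts of protein-coding genes the members took 6.36% in wild-type, 7.20% in *AGO1*, 5.59% in *AGO2*, 4.91% in double and 2.70% in triple knockout cells. The share of all counts ran from 5.44% to 5.71%, 5.94% to 6.38%, 4.67% to 5.12%, 4.08% to 4.37% and 2.35% to 2.41% in these lines with 1 replicate of the line left out.

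*RPSA* in *AGO1/2* knockout cells, near 0, turned to 0.0079 with a replicate block and to between -0.20 and 0.15 with 1 sample left out, where values above 0 were 0.02, 0.15, 0.01 and 0.02. *RPS2* ran from -0.20 to 0.0354 there, the latter without wild-type replicate 3. Over all genes tested the replicate numbers did not pair the samples. For 30 pairs with the same number the mean correlation of deviations was -0.0067, 5 pairs were over 0.1, and 3 of 15 samples correlated best with their own number. Of the 78 members, most were highest in replicate 3 of wild-type (70), *AGO1* (69), double (76) and triple knockout cells (67), but in replicate 1 of *AGO2* knockout cells (74). Pairing within the members alone was not tested. With the replicate block 28 members were lower in *AGO1/2* and 6 higher in *AGO1* knockout cells. The exclusion of the 4 members on chromosome 8, chosen after seeing the data, gave 3 higher in *AGO1* and 23 lower in *AGO1/2* knockout cells. Of all genes tested, 3.17% were called higher in *AGO1* and 8.35% lower in *AGO1/2* knockout cells.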
